A study of Saccharomyces cerevisiae with 5 samples.

Results

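The genes described are 10 cell wall mannoprotein genes of budding yeast, Saccharomyces cerevisiae. They are 4 genes for proteins with internal repeats (PIR1, PIR3, HSP150 and CIS3, without PIR5), 4 TIR/DAN genes (DAN1, TIR1, TIR2 and TIR3) and the pair CWP1 and CWP2. They were chosen by name, as the probes whose platform gene symbol is one of these, and each of the 10 had 1 probe. They are 10 of 4068 genes with a symbol and of 6249 genes and unnamed probes in all.

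Polyadenylated RNA was compared on 5 two-colour arrays, 1 array for each comparison. On 3 arrays a strain lacking SIW14, labelled Siw14D, was set against wild type BY4741, with both strains in 0.4 mM H2O2, both in 0.4 M KCl, or both without stress. That wild type was also stressed rests on its treatment entry, since its source name gives only strain and medium. The remaining 2 arrays set a wild-type strain labelled ACY044 against its own unstressed cells, in 0.4 mM H2O2 or in 0.4 M KCl. All cultures were in log phase in synthetic complete medium, and each stress lasted 20 min. SIW14 encodes a phosphatase of inositol pyrophosphates, and the comparisons ask how its loss bears on the environmental stress response. The labels give no genotype for ACY044 beyond its name, and do not say how many clones of the deletion strain were used.

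The outer layer of the yeast wall is made of proteins that carry long mannose chains and are bound to glucan. PIR proteins lack a lipid anchor and are bound through their repeats to β-1,3-glucan, and their genes are transcribed mainly around the end of mitosis and in early G1. TIR and DAN proteins and the CWP proteins are made with a glycosylphosphatidylinositol anchor and end up bound to β-1,6-glucan. TIR and DAN genes are known for being transcribed without oxygen or in the cold, when they take the place of the CWP proteins that dominate the wall in air.

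All values are log2 ratios of Cy5 over Cy3, siw14 over wild type or stressed over unstressed, so that 1 means 2-fold higher and -1 means 2-fold lower. The first kind is called the siw14 ratio and the second the wild-type stress ratio. The sources used here do not give the base of the logarithm, which was read as 2. With 1 array for each comparison and 0 dye swaps, no ratio has a replicate check and no p-value is given. Dye and condition cannot be told apart. Genes are called higher or lower from 2-fold on, by size alone and with no test. The only repeat within an array came from 7 genes with 2 probes, whose 28 paired values differed by a median of 0.42 and by up to 2.06. The ratios carry no expression level, so the abundance of one gene cannot be set against that of another. Each ratio comes from whole cultures, so fewer cells with a transcript and less transcript per cell cannot be told apart.

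The number of probes with a value was 5810 for siw14 in peroxide, 5822 for siw14 in KCl, 5607 for unstressed siw14, 6060 for wild type in peroxide and 6154 for wild type in KCl. SIW14 itself lay at -1.66, -2.06 and -2.07 on the siw14 arrays in peroxide, in KCl and without stress, against 0.28 and -0.22 on the wild-type arrays in peroxide and KCl. Array medians over all genes lay between -0.02 and 0.03. The robust spread of the ratios (the scaled median absolute deviation) was 0.38 on the unstressed siw14 array and 0.73 to 0.77 on the other 4. Control features for E1A, which is no yeast gene, had medians of 1.17, 0.98 and 2.08 on the siw14 arrays in peroxide, in KCl and without stress, against -0.37 and 0.15 on the wild-type arrays in peroxide and KCl. Their part in the siw14 ratios below was not tested. Over all genes, siw14 and wild-type stress ratios had a Pearson correlation of 0.66 between the peroxide arrays and 0.69 between the KCl arrays. Unstressed siw14 correlated at 0.43 with wild type in peroxide and 0.45 with wild type in KCl. It correlated at 0.70 with siw14 in peroxide and 0.67 with siw14 in KCl. Whether the wild-type reference of the stressed siw14 arrays was itself stressed was not tested.

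The mannoprotein genes did not move as 1 group. Of the 50 possible values 46 were present, of which 14 were 2-fold or more above 0 and 7 were 2-fold or more below it. Of all genes, 7.73% on the unstressed siw14 array and 21.2% to 23.2% on the other arrays were past 2-fold in either direction. PIR3 and CWP2 supplied 10 of the 14 higher values, with 5 each, CWP1 supplied 3 and TIR2 1. The 7 lower values came from PIR1 and TIR1 with 2 each, and from HSP150, CIS3 and DAN1 with 1 each. TIR3 stayed within 2-fold on all 5 arrays. Of the 3 families, only the CWP pair had all its values on 1 side of 0, as the plot of ratios by array shows.

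**Figure D1:**
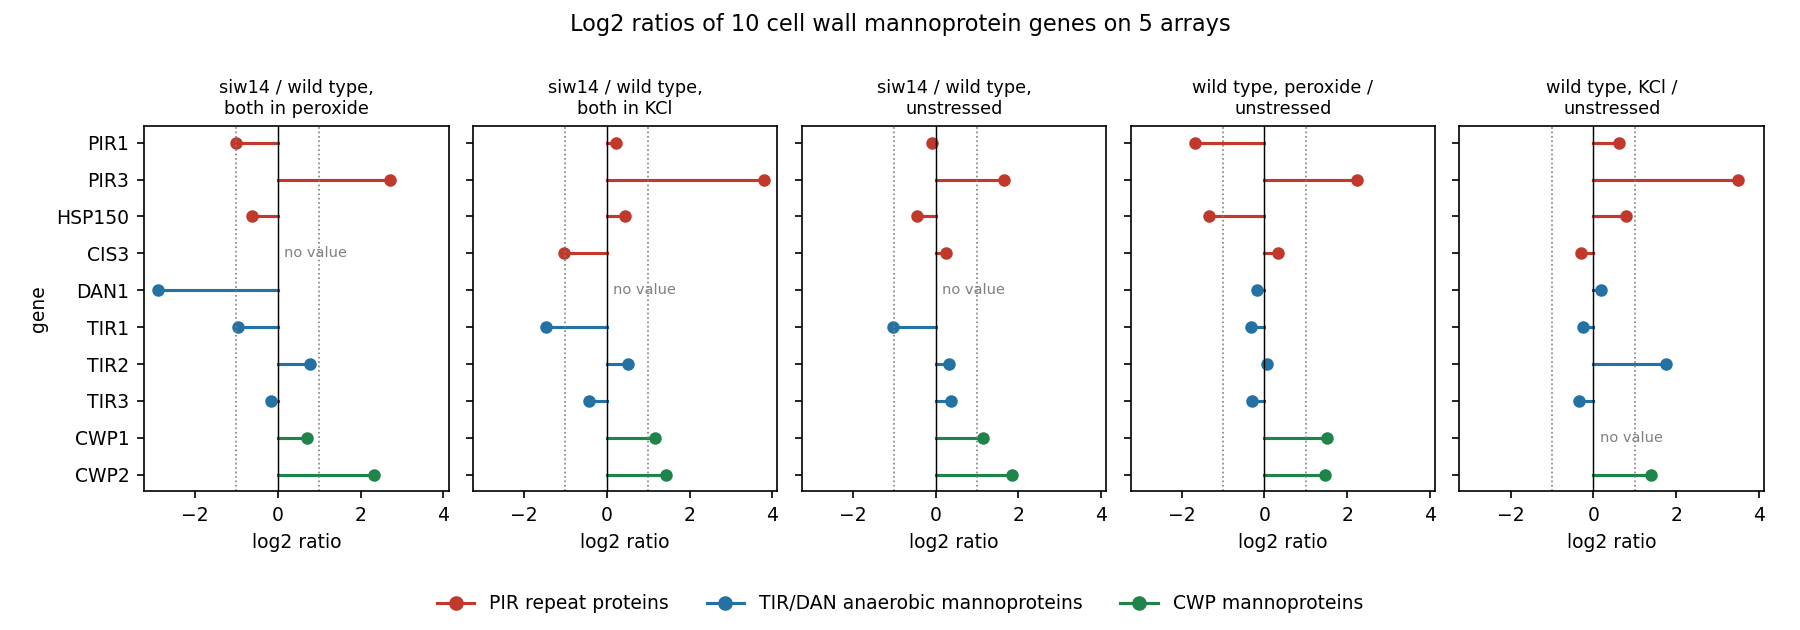
Log2 ratio (horizontal axis) of the 10 mannoprotein genes (vertical axis) on the 5 arrays, with dotted lines at 2-fold and colours for the 3 families; each point is 1 value of 1 array. PIR3 and CWP2 lie right of the 2-fold line in all 5 panels, TIR1 lies left of 0 in all 5, and 4 values are missing.

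PIR3 had the highest ratio of any member with a value on every array except unstressed siw14, where CWP2 lay higher, at 1.86. PIR3 lay at 2.72 in siw14 against wild type in peroxide, at 3.79 in KCl and at 1.66 without stress. In wild type against unstressed cells PIR3 lay at 2.22 in peroxide and 3.49 in KCl. These are 6.59-fold, 13.8-fold, 3.15-fold, 4.67-fold and 11.2-fold higher. All 5 values were on the same side, and both KCl arrays had the higher ones. In siw14 against wild type in KCl, PIR3 held rank 12 from the top of 5816 genes.

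PIR1 encodes a PIR protein whose gene lies beside PIR3. Its siw14 ratio was -1.003 in peroxide, 0.23 in KCl and -0.09 without stress. In wild type, against unstressed cells, PIR1 was 3.22-fold lower in peroxide, at -1.69, and lay at 0.63 in KCl. PIR1 was thus low on both peroxide arrays and slightly above 0 on both KCl arrays. Its ratio in siw14 in peroxide stood at the 2-fold line itself and fell short of it, at -0.99, once the array was centred on its median.

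HSP150, also called PIR2, encodes a secreted PIR protein first found in heat-shocked cells. Its siw14 ratios were -0.62 in peroxide, 0.44 in KCl and -0.46 without stress, and its wild-type stress ratios -1.35 in peroxide and 0.79 in KCl. HSP150 had the same sign as PIR1 on all 5 arrays. Over the 45 pairs of members these were the most alike, with a mean absolute difference of 0.29 over the 5 arrays, a smallest difference of 0.16 and a largest of 0.39. The pair was picked as the closest of the 45. Between 2 probes of 1 gene the median difference was 0.15 on the array of wild type in peroxide, where PIR1 and HSP150 lay further apart than that, and 0.49 to 0.90 on the other 4, where they lay closer. Probe sequences were not used here, so whether the probes of these related genes also bind each other's transcripts was not tested. PIR1 and PIR3, in contrast, differed by a mean of 3.16 and by at least 1.75 on every array.

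CIS3, also called PIR4, encodes the PIR protein whose gene neighbours HSP150. It lay at -1.02 in siw14 against wild type in KCl and at 0.24 without stress, and had no value in peroxide. The wild-type stress ratios were 0.34 in peroxide and -0.29 in KCl. The value in KCl, 2.03-fold lower, was the only CIS3 value past 2-fold, and was -0.93 after each array was scaled to a common spread.

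The medians of the PIR genes hide these opposite values. They were -0.62 over 3 values for siw14 in peroxide, 0.33 over 4 for siw14 in KCl, 0.07 for unstressed siw14, -0.51 for wild type in peroxide and 0.71 for wild type in KCl. The distance between the highest and the lowest PIR gene was 3.72, 4.81, 2.11, 3.91 and 3.78 on those arrays, in the same order. PIR3 was the top of that range on every array.

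DAN1, a wall protein gene that is repressed in air, had the lowest ratio of any member. It lay at -2.90 in siw14 against wild type in peroxide, which is 7.46-fold lower and rank 13 from the bottom of 5806 genes. On the arrays of siw14 in KCl and unstressed siw14 it had no value, so whether the low ratio is particular to peroxide cannot be seen. Stressed wild type had DAN1 near its unstressed level, with ratios of -0.18 in peroxide and 0.18 in KCl. The low value therefore rests on 1 probe on 1 array. On that array the E1A control features ranged from -2.01 to 2.28, and 2 probes of 1 gene differed by up to 2.06. Whether the DAN1 signal stood clear of background was not tested.

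TIR1, a gene known to be induced by cold and by lack of oxygen, was below 0 on all 5 arrays. Its siw14 ratios were -0.95 in peroxide, -1.46 in KCl and -1.02 without stress, or 1.93-fold, 2.75-fold and 2.03-fold lower. In stressed wild type the ratios were -0.33 for peroxide and -0.26 for KCl. The 3 siw14 values were all further from 0 than the 2 wild-type values. On the unstressed siw14 array TIR1 held rank 81 from the bottom of 5603 genes.

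TIR2, whose product is a close relative of that of TIR1, ran the other way. It lay at 0.78 in siw14 against wild type in peroxide, 0.52 in KCl and 0.32 without stress. Its wild-type stress ratio was 0.07 in peroxide and 1.76 in KCl, and the last value, 3.39-fold higher, was the only TIR2 value past 2-fold. TIR1 and TIR2 thus had opposite signs on every array. As for PIR1 and HSP150, how well the probes of these related genes tell their transcripts apart was not tested.

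TIR3, an anaerobic wall protein gene of the same family, lay at -0.17, -0.42 and 0.37 in siw14 against wild type in peroxide, in KCl and without stress. Stressed wild type had TIR3 at -0.29 in peroxide and -0.35 in KCl. The TIR/DAN medians were -0.56 over 4 values for siw14 in peroxide, -0.42 over 3 for siw14 in KCl, 0.32 over 3 for unstressed siw14, -0.24 over 4 for wild type in peroxide and -0.04 over 4 for wild type in KCl. None of these medians reached 2-fold.

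CWP2 encodes one of the main mannoproteins of the wall in air and was higher on every array. Its siw14 ratios were 2.32 in peroxide, 1.43 in KCl and 1.86 without stress, or 5.01-fold, 2.69-fold and 3.62-fold higher. The wild-type stress ratios of CWP2 were 1.46 for peroxide and 1.39 for KCl. Its 5 values spanned 0.93, against 2.13 for PIR3, the other member past 2-fold on all 5 arrays.

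CWP1, its neighbour, encodes a mannoprotein found at the birth scar of daughter cells. It lay at 0.69, 1.17 and 1.14 in siw14 against wild type in peroxide, in KCl and without stress, and at 1.52 in wild type in peroxide against unstressed cells. On the array of wild type in KCl it had no value. CWP1 was above 0 wherever it had a value, and past 2-fold on 3 of 4 arrays. It lay 1.63 below CWP2 in siw14 in peroxide, but within 0.06 of it in wild type in peroxide.

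Read against all genes, the members' counts were as follows. In siw14 against wild type in peroxide 2 of the 9 members measured were higher by 2-fold or more, against 12.8% of all genes, and 2 were lower, against 8.30%. In KCl 3 of 9 were higher, against 11.4% of all genes, and 2 lower, against 11.0%. Without stress 3 of 9 were higher, against 6.18%, and 1 lower, against 1.55%. In wild type against unstressed cells, 3 of 10 were higher in peroxide, against 10.7% of all genes, and 2 lower, against 11.3%. In KCl 3 of 9 were higher, against 11.5%, and 0 lower, against 11.7%. With so few members, each count turns on 1 or 2 genes, and the higher ones were PIR3 and CWP2 each time, joined by CWP1 or TIR2 where there were 3.

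The median of the members with a value lay at -0.17 for siw14 in peroxide, 0.44 for siw14 in KCl, 0.32 for unstressed siw14, -0.06 for wild type in peroxide and 0.63 for wild type in KCl. The medians of all genes were -0.02, 0.00, 0.00, 0.03 and 0.03 on those arrays. The distance between the highest and the lowest member ran from 2.88 on the unstressed siw14 array to 5.62 for siw14 in peroxide. The robust spread of all genes was 0.38 and 0.76 on those arrays, so the array with the narrowest spread also had the smallest distance.

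**Figure D2:**
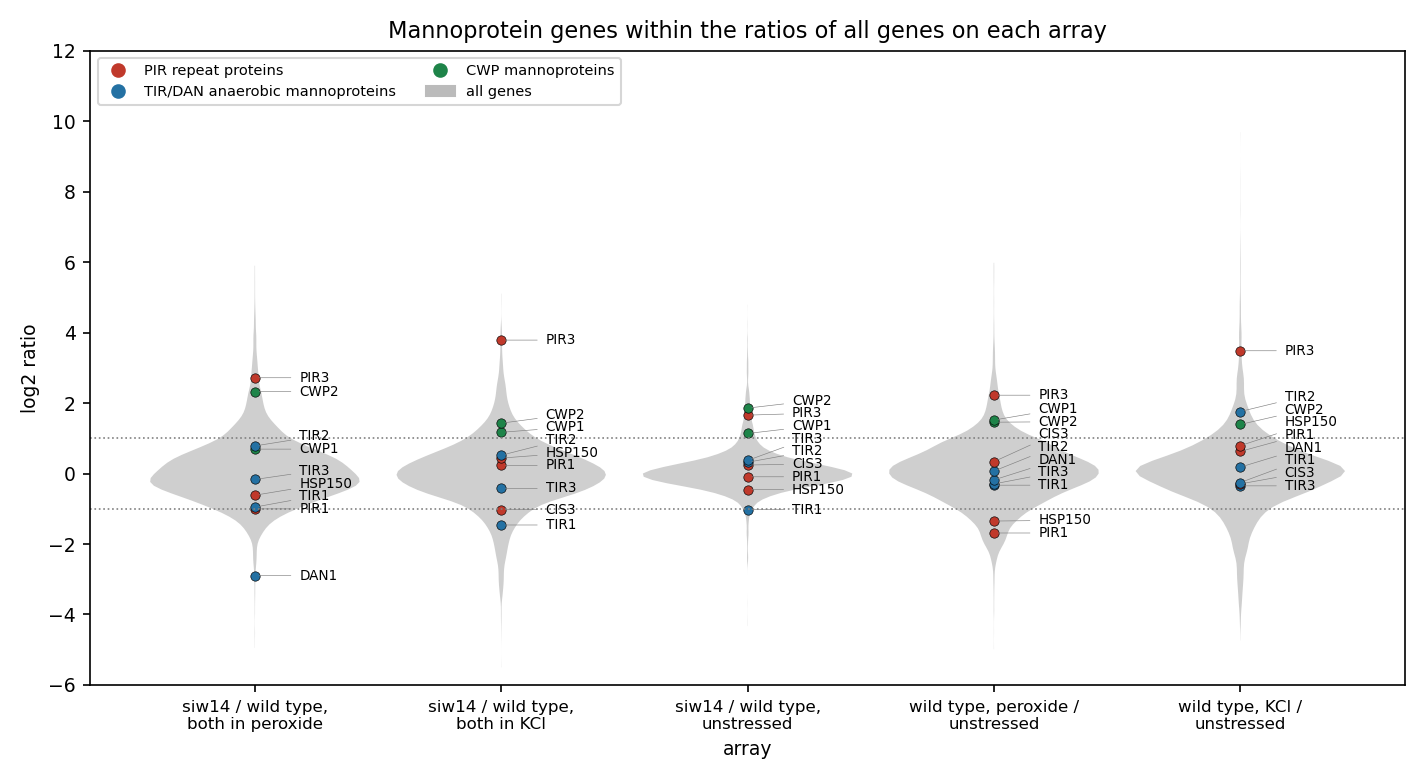
Log2 ratio (vertical axis) of the mannoprotein genes (labelled points, coloured by family) within the distribution of all genes with a value (grey) on each of the 5 arrays (horizontal axis), with dotted lines at 2-fold. PIR3 and CWP2 lie in the upper tail on all 5 arrays, DAN1 lies in the lower tail at -2.90 for siw14 in peroxide, and the unstressed siw14 array is the narrowest.

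Several members lie beside each other on a chromosome, which the choice by name did not use. Positions were taken from the order of protein-coding genes in the RefSeq table of assembly R64, and no coordinates are given, since no source used here names the array's build. PIR1 (YKL164C) and PIR3 (YKL163W) are neighbours on chromosome XI and are read away from each other. HSP150 (YJL159W) and CIS3 (YJL158C) are neighbours on chromosome X, read towards each other. CWP2 (YKL096W-A) and CWP1 (YKL096W) are neighbours on chromosome XI, read in the same direction. DAN1 (YJR150C) lies beside DAN4 (YJR151C), another wall protein gene of that family.

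The pairs of neighbours differed in how alike their ratios were. CWP1 and CWP2 had the same sign on the 4 arrays where both had a value, with a mean absolute difference of 0.67. PIR1 and PIR3 had the same sign on 2 of 5 arrays. HSP150 and CIS3 had opposite signs on each of the 4 arrays with both values. DAN1 and DAN4 both had values on 3 arrays and were far apart on 1 of them, siw14 in peroxide, with DAN1 at -2.90 and DAN4 at 1.78. In wild type DAN1 lay at -0.18 and DAN4 at 0.14 in peroxide, and DAN1 at 0.18 and DAN4 at 1.02 in KCl. The pattern of PIR1 was thus closest to that of HSP150 on another chromosome and far from that of its neighbour.

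**Figure D3:**
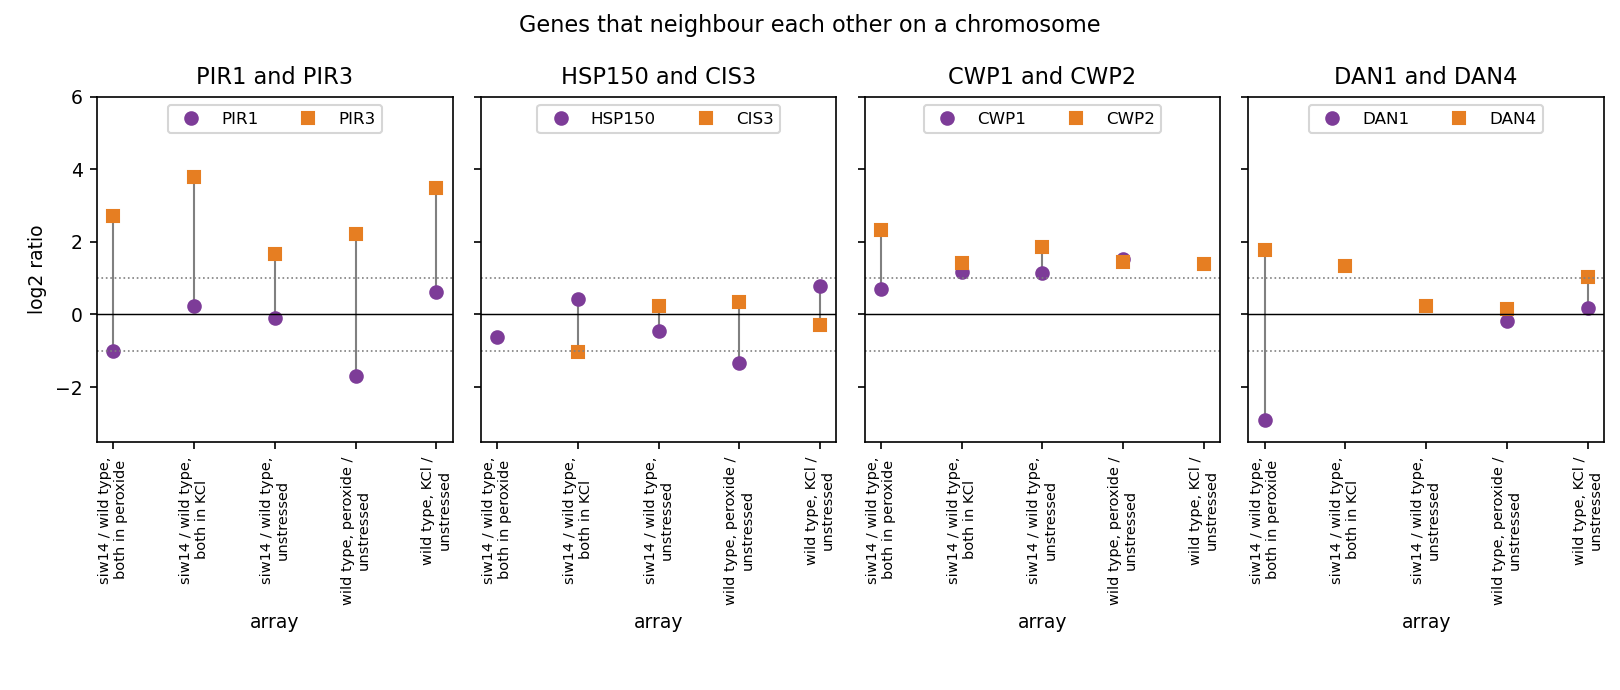
Log2 ratios (vertical axis) of 4 pairs of neighbouring genes on the 5 arrays (horizontal axis); circles and squares are the genes of a pair, a grey line joins them where both had a value, and dotted lines mark 2-fold. PIR3 lies at least 1.75 above PIR1 on every array, whereas CWP1 and CWP2 stay on the same side of 0.

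The siw14 ratio under stress was next set against the siw14 ratio without stress, by subtraction of log2 values. In peroxide minus unstressed, 1 of 8 members was at least 2-fold higher, against 5.09% of all genes, and 0 lower, against 3.94%. In KCl minus unstressed, 1 of 9 was higher, against 4.06%, and 1 lower, against 7.83%. PIR3 was the higher one both times, with a difference of 2.13 in KCl (3.79 under stress and 1.66 without) and of 1.06 in peroxide (2.72 and 1.66). CIS3 was the lower one in KCl, at -1.26 (-1.02 under stress and 0.24 without). Unscaled, the differences of the other members with values lay between -0.91 (PIR1 in peroxide) and 0.89 (HSP150 in KCl). TIR1 differed by 0.07 in peroxide and by -0.44 in KCl, so its low siw14 ratio was already present without stress.

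These differences and their counts depend on the scale, because the unstressed array had the narrowest spread. After each array was scaled to a common spread, 0 of 8 members were at least 2-fold higher in peroxide minus unstressed, against 5.56% of all genes, and 2 were lower, against 6.43%. The lower ones were CWP1 at -1.40 and CWP2 at -1.23, and PIR3 lay at -0.52, with the sign turned. In KCl minus unstressed, 1 of 9 was then higher, against 5.52%, and 3 were lower, against 10.2%. HSP150 was the higher one, at 1.21, whereas PIR3 lay at 0.51. CWP2 at -1.99, CIS3 at -1.36 and TIR3 at -1.04 were the lower ones. CIS3 in KCl was thus the only difference past 2-fold in the same direction before and after scaling. Scaled differences of TIR1 were 0.97 in peroxide and 0.49 in KCl, the second with the sign turned. Whether any culture or RNA was shared between arrays is not given in the labels.

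**Figure D4:**
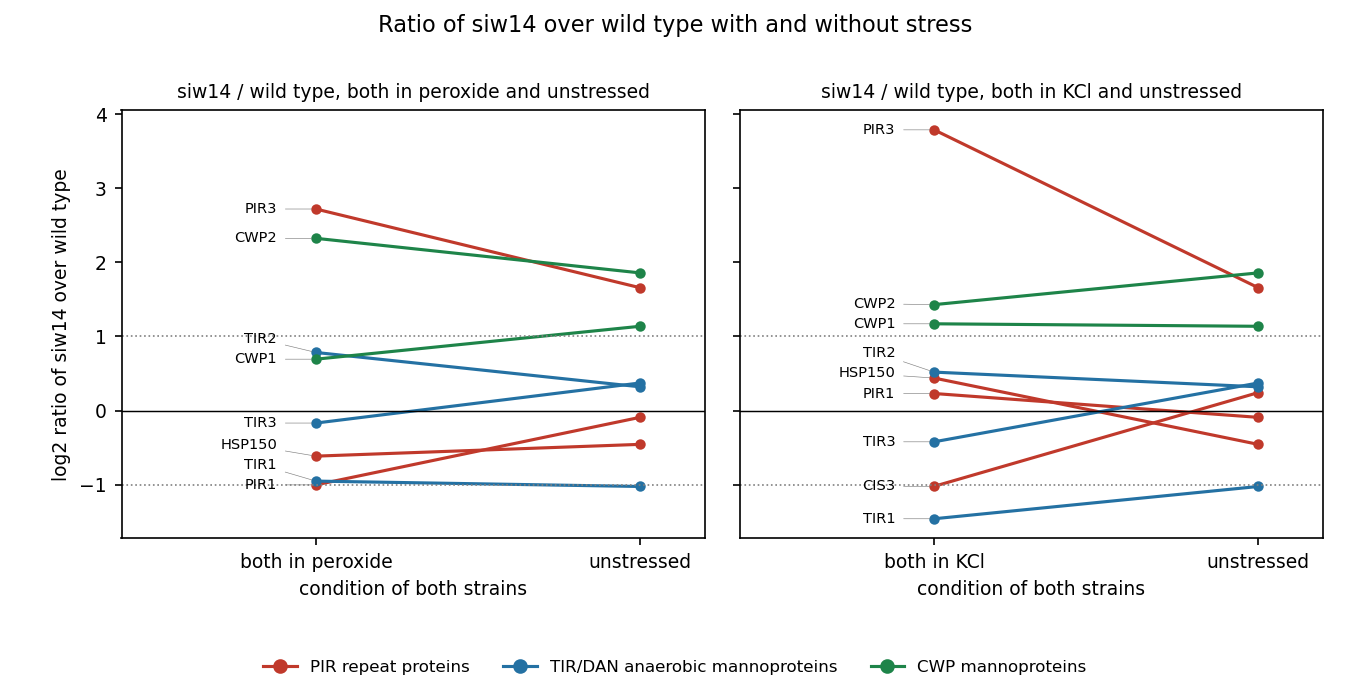
Log2 ratio of siw14 over wild type (vertical axis) for each member with both values, with both strains in peroxide (left panel) or in KCl (right panel) and without stress (right end of each line); colours mark the families and dotted lines 2-fold. PIR3 lies higher under both stresses than without, by 2.13 in KCl and 1.06 in peroxide, although scaling to a common spread turns the sign in peroxide, and CIS3 lies lower in KCl, at -1.26 before scaling and -1.36 after it.

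Related wall genes were read from 6 lists made from general knowledge, whose counts stand against the shares of all genes given above. Of 28 other wall protein genes, 8 of the 28 measured were past 2-fold upwards and 2 downwards in siw14 against wild type in peroxide, 7 and 3 of 27 in KCl, and 6 and 3 of 27 without stress. In wild type against unstressed cells, 7 and 1 of 28 were past 2-fold in peroxide, and 9 and 0 of 27 in KCl. The medians were 0.51, 0.53 and 0.08 in siw14 in peroxide, in KCl and without stress, and 0.17 and 0.32 in wild type in peroxide and KCl. YGP1 and SPI1 are wall genes of starvation and stress. YGP1 was among the 2 highest on the 3 siw14 arrays, at 4.0 in peroxide, 3.45 in KCl and 3.23 without stress, and SPI1 on 2 of them, at 2.91 in KCl and 3.75 without stress. SPI1 also had the highest ratio of the list in wild type in KCl, at 5.67. FIT2 and FIT3, for mannoproteins that help to hold iron at the wall, were the 2 highest in wild type in peroxide and the 2 lowest in unstressed siw14. FIT2 lay at 0.27, -0.62 and -2.24 in siw14 in peroxide, in KCl and without stress, and at 5.45 and 1.98 in wild type in peroxide and KCl. FIT3 lay at -1.53, -1.55 and -2.43 on the same siw14 arrays, and at 3.45 and 1.30 on those of wild type. SPS100, a spore wall gene, lay at 3.72 in siw14 in peroxide and 3.31 in wild type in KCl. TIP1, the gene after which the TIR genes were named, lay at -1.31 in siw14 in peroxide, and PRY2 lay at -2.05 in siw14 in KCl. TIR4, a relative of the TIR genes, lay at -1.29 in wild type in peroxide.

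Genes that make and remodel glucan and chitin had fewer values past 2-fold than these wall protein genes on each array. Of them, 2 were at least 2-fold higher and 3 lower of 27 in siw14 in peroxide, 4 and 4 of 28 in KCl, and 1 and 0 of 27 without stress. In wild type 0 and 2 of 28 were past 2-fold in peroxide, and 1 and 1 of 27 in KCl. Medians lay between -0.36 (siw14 in KCl) and 0.03 (unstressed siw14). UTR2 and CRH1 encode enzymes that link chitin to glucan. UTR2 lay at -2.07 in siw14 in peroxide, and CRH1 at -1.64 in siw14 in KCl. SCW10, which encodes a glucanase-like wall protein, lay at -2.52 in siw14 in KCl. SKN1, a gene of β-1,6-glucan synthesis, lay at 1.45 in siw14 in KCl and 1.33 in wild type in KCl. CHS2, the chitin synthase gene of the septum, lay at -1.11 in siw14 in peroxide and -2.01 in wild type in peroxide.

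The cell wall integrity pathway carries wall damage from surface sensors through Rho1 and protein kinase C to the kinase Slt2. Of its 24 genes measured, 4 were higher by 2-fold or more and 3 lower in siw14 in peroxide, 4 and 0 in KCl, 3 and 0 without stress, 3 and 2 in wild type in peroxide, and 2 and 0 in wild type in KCl. Medians lay between -0.18 (siw14 in peroxide) and 0.20 (wild type in KCl). SDP1, whose product is a phosphatase acting on Slt2, was the highest of the list on each array, at 2.76, 2.28 and 1.89 in siw14 in peroxide, in KCl and without stress, and at 2.97 and 2.98 in wild type in peroxide and KCl. ROM1, an activator gene of Rho1, lay at 1.82 in siw14 in KCl, and at 1.29 and 1.77 in wild type in peroxide and KCl. Of the sensor genes, MTL1 lay at 2.20 in siw14 in peroxide and WSC4 at 1.71 in unstressed siw14. SWI4 and LRG1 lay at -1.21 and -1.38 in siw14 in peroxide.

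Genes of daughter-cell separation and the M/G1 phase, when PIR genes are transcribed, had medians below 0 in stressed wild type. In wild type, 0 were at least 2-fold higher and 5 lower of 23 in peroxide (median -0.63), and 0 and 4 of 22 in KCl (median -0.51). On the siw14 arrays, 2 were higher and 5 lower of 23 in peroxide, 2 and 2 of 22 in KCl, and 0 and 0 of 23 without stress, with medians of -0.23, 0.18 and 0.25. SWI5, which encodes an activator of this phase, and its target ASH1 lay at -1.18 and -1.63 in wild type in peroxide. DSE4, a daughter-cell glucanase gene, lay at -1.45 in siw14 in peroxide and -1.15 in wild type in KCl. CTS1, the chitinase gene of cell separation, lay at 1.25 and 1.33 in siw14 in peroxide and KCl, and CDC6, a replication gene, at -2.28 and -1.09. PIR1 and HSP150 lay below 0 together with this list's median in wild type in peroxide, but above 0 in wild type in KCl. The other PIR genes differed from them, with PIR3 at 2.22 and CIS3 at 0.34 in wild type in peroxide. In wild type in KCl PIR3 lay at 3.49 and CIS3 at -0.29.

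Genes of the response to low oxygen also went both ways. Of 29 measured, 5 were higher by 2-fold or more and 4 lower in siw14 in peroxide, 5 and 0 in KCl, 2 and 3 without stress, 2 and 7 in wild type in peroxide, and 2 and 5 in wild type in KCl. Medians lay between -0.43 (wild type in peroxide) and 0.13 (siw14 in KCl). CYC7 and COX5B, the low-oxygen isoform genes of cytochrome c and of a cytochrome oxidase subunit, were the 2 highest on each array. CYC7 lay at 2.49, 1.71 and 2.36 in siw14 in peroxide, in KCl and without stress, and at 2.02 and 3.81 in wild type in peroxide and KCl. MOT3, which encodes a repressor of DAN and TIR genes, lay at -1.74, -0.57 and -1.01 in siw14 in peroxide, in KCl and without stress, and at -1.07 and 0.07 in wild type in peroxide and KCl. OLE1, for the fatty acid desaturase, lay at -1.40 and -1.66 in wild type in peroxide and KCl.

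Genes that add mannose to wall proteins or process them had medians below 0 on all 5 arrays. In wild type 0 were at least 2-fold higher and 7 lower of 25 in peroxide, and 0 and 3 of 24 in KCl. In siw14 against wild type 1 and 3 of 25 were past 2-fold in peroxide, 0 and 2 in KCl, and 0 and 0 without stress. Medians lay between -0.66 (wild type in peroxide) and -0.15 (unstressed siw14). KEX2, for the protease that cleaves PIR precursors, lay at -1.19 in siw14 in peroxide and -1.53 in wild type in peroxide. MNN1, for a Golgi mannosyltransferase, lay at -1.52 in siw14 in KCl and -2.14 in wild type in KCl. PMT5, for an O-mannosyltransferase, lay at -1.74 in wild type in peroxide, and OCH1, which starts the outer mannose chain, at 1.15 in siw14 in peroxide.

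**Figure D5:**
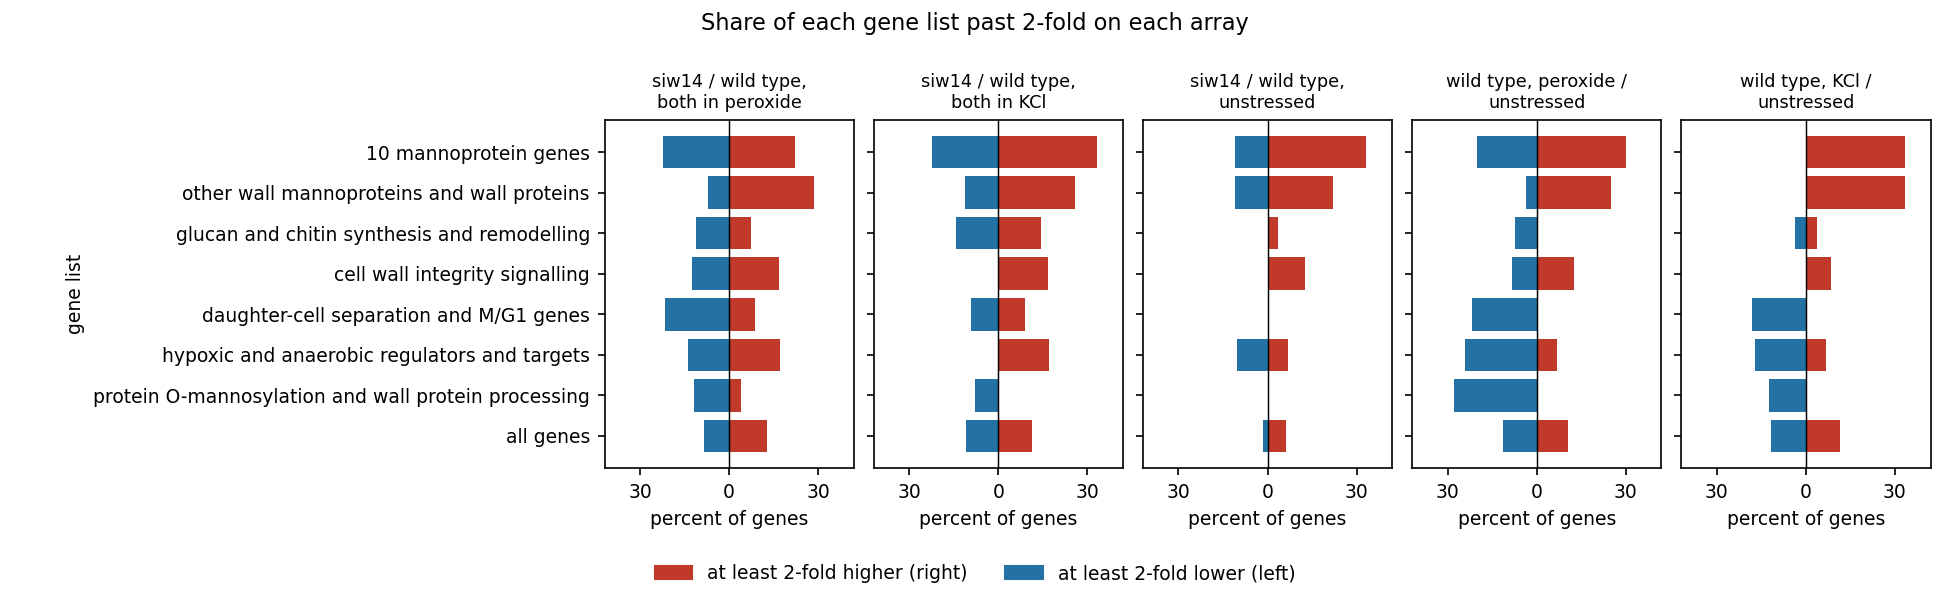
Share of genes at least 2-fold higher (red, to the right) or lower (blue, to the left) in percent of genes with a value (horizontal axis), for the 10 mannoprotein genes, the 6 related lists and all genes (vertical axis) on the 5 arrays. The mannoprotein genes have bars on both sides on 4 arrays, and 0 of 9 are lower for wild type in KCl.

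The genes whose ratios were nearest to the family medians over the 5 arrays were found by Euclidean distance among 3799 named genes with all 5 values. To the PIR median, which mixes unlike members, these were HAL9 (0.27), CDC55 (0.30), CHS1 (0.30), HMG2 (0.34) and YOR1 (0.43). To the TIR/DAN median they were BUD14 (0.28), SOL3 (0.31), STE6 (0.32), NUP60 (0.32) and KIP3 (0.33). PIR3 was searched on its own after its values were seen. Few genes lie as far from 0 as PIR3, so its distances cannot be set against those of the family medians. Its nearest was CYB2, for lactate dehydrogenase, at a distance of 0.75, with ratios of 2.82, 3.36 and 1.99 in siw14 in peroxide, in KCl and without stress, and of 1.71 and 3.54 in wild type in peroxide and KCl. TFS1, for a carboxypeptidase Y inhibitor, followed at 1.10, then GIP2 at 1.53, the glutathione peroxidase gene GPX1 at 1.65 and ATO2 at 1.71.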

How the data were processed

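The values are the authors' deposited log2 ratios, 1 per probe and array. Per the labels, Cy5 marks siw14 or stressed RNA and Cy3 wild-type or unstressed RNA. On the 2 arrays of stressed siw14 the Cy3 source name gives only strain and medium, and its treatment entry was followed. Scanner, background correction, normalisation, centring and cause of missing values are not given in the sources used here. Of 6256 yeast probes 4075 had 1 gene symbol, 0 several and 2181 none; 3942 symbols were current in RefSeq, 129 were updated and 4 kept. Probes of a gene were averaged, which touched no member, and 53 control features were left out.

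Medians and counts past 2-fold were computed with Python 3.11.15 and pandas 2.3.3 and checked on simulated data. All members were named on every array, with up to 2 genes at each end of a list past 2-fold (reported in part), and 5 genes nearest to each family median. DAN4, PIR3's nearest genes and the genes of the closing observations were added after seeing values. Members and lists were chosen with earlier results of these data known. Alternatives were array scaling, centring, natural logarithms and other fold limits. The number of arrays limits the precision.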

Additional observations from a re-analysis of the deposited data

Results flagged for a closer look

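Opposite directions at least 2-fold apart between 2 conditions of the same contrast drew attention to 5 differences, none of which was tested, since each side is 1 array. In wild type against unstressed cells, PIR1 lay at -1.69 in peroxide and 0.63 in KCl, a difference of -2.32. HSP150 lay at -1.35 and 0.79, a difference of -2.14. In siw14 against wild type, PIR1 lay at -1.003 in peroxide and 0.23 in KCl, a difference of -1.23. HSP150 lay at -0.62 and 0.44, a difference of -1.05. CIS3 lay at -1.02 in siw14 against wild type in KCl and at 0.24 without stress, a difference of -1.26. After each array was scaled to a common spread, HSP150 lay at -0.55 and 0.40 in siw14, less than 2-fold apart. The other flagged differences stayed at least 2-fold after scaling. No group held enough arrays to look for an outlying one.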

How the results depend on the processing

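Of 46 member ratios, 44 kept their side of 2-fold after each array was scaled to a common spread. The count was 45 after median centring and 43 when read as natural logarithms. No sign changed, but none could have. Scaling and natural logarithms multiply an array by a positive number. Centring took away medians between -0.02 and 0.03, and the member ratio nearest to 0 was 0.07. The PIR median for wild type in KCl passed 2-fold, at 1.02, as natural logarithms. For siw14 in peroxide, 1 member was lower after scaling, after centring or at 3-fold, against 2, and at 1.5-fold 4 were higher and 4 lower. For siw14 in KCl, 1 was lower after scaling, and at 3-fold 1 was higher and 0 lower. At 3-fold 0 were lower in unstressed siw14, and 1 was higher and 1 lower in wild type in peroxide. At 1.5-fold 5 were higher in wild type in KCl. The shares of all genes at 1.5-fold and 3-fold are not given here, so the counts at those limits cannot be read against all genes. Stress minus unstressed siw14 ratios were recomputed under scaling alone, and their counts, chosen after seeing the data, became 0 higher and 2 lower in peroxide (1 and 0 before), and 1 and 3 in KCl (1 and 1 before). In peroxide the differences were then -0.52 for PIR3 (reversed from 1.06), 0.26 for HSP150, -1.40 for CWP1 and -1.23 for CWP2. In KCl they were 0.51 for PIR3, 1.21 for HSP150, 0.49 for TIR1, -0.10 for TIR2, -1.04 for TIR3, -0.95 for CWP1 and -1.99 for CWP2. The robust spread of 0.38 on the unstressed array, against 0.73 to 0.77 on the others, sets the size of this rescaling. No member has 2 probes, so no choice between probes applied. No paired analysis was possible because each comparison had 1 array. Signal over background was not used here.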

Other observations

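The relatives of the TIR and DAN genes gave further values. TIP1 lay at -1.31, -0.75 and -1.15 in siw14 against wild type in peroxide, in KCl and without stress, and at -0.53 and -0.56 in wild type in peroxide and KCl, so that it was below 0 on all 5 arrays, as TIR1 was. TIR4, the neighbour of TIR2, was also below 0 on all 5, at -0.30, -0.04 and -0.59 in siw14 and at -1.29 and -0.17 in wild type. DAN4, in contrast, was above 0 on all 5, at 1.78, 1.33 and 0.23 in siw14 and at 0.14 and 1.02 in wild type. The 7 seripauperin genes PAU1 to PAU7, which are so alike in sequence that their probes may not tell them apart, had medians of -0.04, 0.45 and -0.31 in siw14 in peroxide, in KCl and without stress, and of -0.31 and 0.13 in wild type in peroxide and KCl. Of these 7, 1 was at least 2-fold higher in siw14 in peroxide, against 12.8% of all genes, and 2 in siw14 in KCl, against 11.4%. PAU23 and PAU24, from the list of other wall protein genes, had values on both sides of 0. CCW12, another major wall mannoprotein gene, lay at 1.52, 1.19 and 1.36 in siw14 in peroxide, in KCl and without stress, and at 1.65 and 1.80 in wild type in peroxide and KCl, past 2-fold on all 5 arrays, as CWP2 was. Being past 2-fold on all 5 arrays was not particular to such genes. YGP1 and SPI1 of the same list were so too, as were SDP1, ROM1, CYC7 and COX5B of other lists. These genes were chosen after their values were seen.

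The E1A control features ranged from -2.01 to 2.28 over 7 values for siw14 in peroxide, from -0.86 to 2.54 over 9 for siw14 in KCl and from 1.68 to 2.35 over 3 for unstressed siw14. They ranged from -0.69 to -0.17 over 10 values for wild type in peroxide and from -1.06 to 0.44 over 6 for wild type in KCl.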
